A study of Canis lupus familiaris with 4 samples.

Results

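Long chains of accessible sites were examined in MDCKII cells, an established epithelial line from canine kidney that forms a polarised monolayer in culture. A chain was built by joining consecutive peaks of the authors' table whose midpoints lay at most 5 kb apart, and a chain was called long when it held 8 or more peaks. On the numbered chromosomes 1 to 38 this rule gave 213 long chains among 36476 chains of any size. They held 2300 of the 57672 peaks there, or 3.99%. Chromosome X was outside the rule.

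The assay was ATAC-seq, which reads out open chromatin because the transposase Tn5 places its sequencing adapters mainly where DNA is exposed. It was run on 4 libraries of MDCKII cells that the library titles mark as wt. Mature libraries A and B (n = 2) came from monolayers grown for 7 d. Reseeded libraries A and B (n = 2) came from monolayers grown for 7 d, detached and allowed to settle again for 2 h, so both groups share the 7 d of growth. Counts in all peaks totalled 8759513 and 6253706 in mature A and B and 16906566 and 24015663 in reseeded A and B, so low reseeded values rest on the deeper libraries. The labels do not say whether A and B were separate cultures. All p-values here therefore reflect no more than the spread of these libraries, and that spread may be technical. Library titles open with a number that both mature libraries share and that differs from the number shared by both reseeded libraries. An effect of whatever this number stands for and an effect of reseeding cannot be told apart.

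Open sites mark promoters, enhancers and other places where nucleosomes are displaced by bound proteins. Such sites are spaced unevenly along mammalian chromosomes, and enhancers that lie close together are often stitched into a single region, as in the definition of super-enhancers, because neighbouring elements can act on the same gene. Detaching an epithelial sheet breaks its contacts with neighbouring cells and with the substrate, and reseeded cells then attach and spread before the contacts and the apical surface are rebuilt. No gene could be placed beside these chains, because the positions are on CanFam3.1 and the annotation used here describes another assembly. The chains are therefore named by chromosome, start and end.

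The long chains held 8 to 32 peaks (median 9.0), and 107 of them held 8 or 9. Only 23 chains held 15 or more peaks, and 9 held 20 or more. Each peak is 501 bp wide, and from the first to the last peak the chains ran from 6.29 to 45.9 kb (median 17 kb), 3756 kb in all. Mean spacing between midpoints within a chain had a median of 1.77 kb (range 0.827 to 3.69 kb), and peaks covered a median of 30.6% of a chain (15.2 to 63.7%). Chromosome 9 carried 30 long chains with 365 peaks, 10.3% of its peaks, followed by chromosome 20 with 17 chains and chromosome 7 with 13. No long chain was found on chromosomes 19, 22, 29, 31, 33, 34, 36 and 37.

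Some chains depended on the 5 kb limit. The widest link inside a long chain was 4.992 kb and the narrowest gap beside one was 5.012 kb. Of 2087 links, 80 lay between 4.5 and 5 kb, in 70 chains, while 820 were of 1 kb or less (median 1.26 kb). At 32 chains the next peak lay 5 to 5.5 kb away. Chains of 7 peaks, just short of the limit, numbered 125 and had a median log2 fold of -0.45, and the 68 chains of 8 peaks had -0.41.

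Most long chains lost accessibility as a whole after reseeding, under each scaling tried except loess offsets, where the lower chains were fewer than the rest. Counts of a chain's peaks were summed in each library and compared with edgeR's quasi-likelihood test, fitted over all 37425 chains of any size that were tested. A chain was called at an adjusted p (Benjamini-Hochberg) under 0.05, and folds are reseeded over mature. Of the 213 long chains, 174 (81.7%) were called lower and 23 (10.8%) higher, and 16 were not called. Over all chains tested, single peaks included, 38.9% were called lower and 45.9% higher. A sum over many peaks carries more counts than a single peak, so smaller changes pass the test in long chains, and sizes are the fairer comparison. At a fold of 2 or more, 39 long chains (18.3%) were lower, against 10.9% of all chains, and 9 of them were at least 4-fold lower. None was at least 2-fold higher by edgeR, at an unadjusted p under 0.05 or by DESeq2 (0 of 213 in each), against 28.1% of all chains, although 1 was with library size alone or upper-quartile factors and 8 were with loess offsets.

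The median log2 fold of the long chains was -0.50 (quartiles -0.83 and -0.19, range -3.91 to 0.97), while that of all chains was 0.09. The median chain stood at 248 CPM (counts scaled by library totals with TMM factors, so that libraries are comparable) in the mature group and at 175 CPM in the reseeded group. Scaling mattered for this split. With loess offsets, which remove any trend of fold with mean level, 103 long chains were called lower and 83 higher, 15 fell by 2-fold or more. The median was then -0.07, against -0.10 for all chains, so the long chains no longer lay below the rest. Long chains made up 84 of the 100 chain sums of highest mean level. Their part in the loess trend at that level was not tested.

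**Figure D1:**
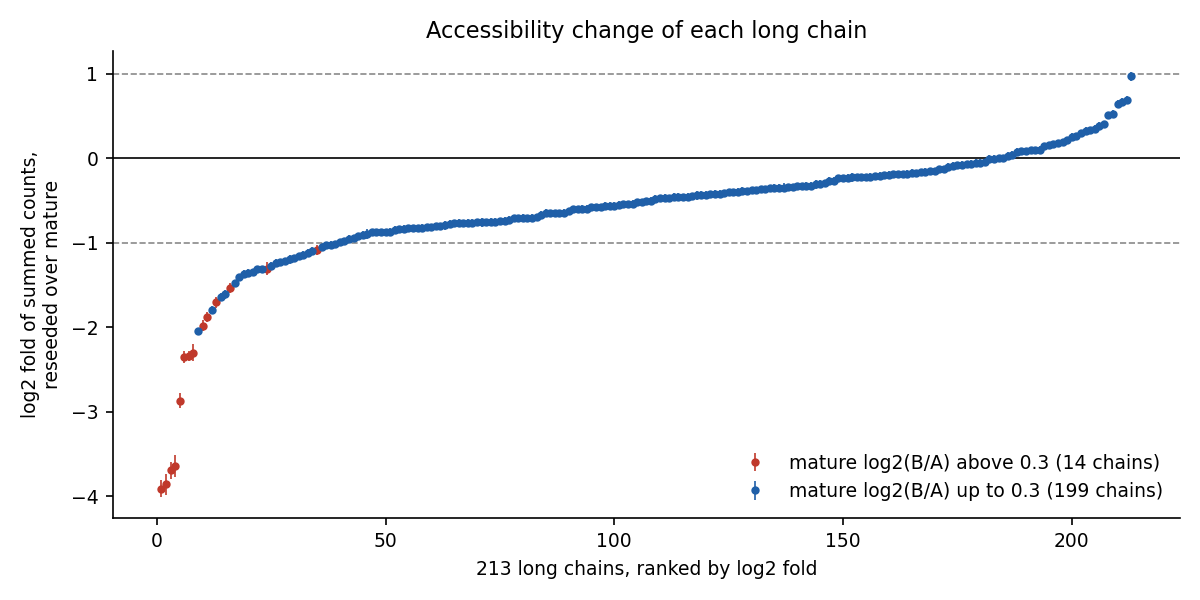
The 213 long chains ranked by the log2 fold of their summed counts, reseeded over mature (y axis), with bars for the SE from edgeR and dashed lines at a fold of 2 in either direction. The 14 chains in red, in which mature library B exceeded A by more than 0.3 on the log2 scale, all lie below the lower line, and the highest chain of all reaches 0.97.

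Long chains also held a smaller part of each reseeded library. Their peaks took 6.46% and 6.86% of all counts in mature A and B and 4.42% and 4.46% in reseeded A and B. The groups did not overlap, with means of 6.66% ± 0.28 and 4.44% ± 0.0301 (SD, n = 2 each) and a difference of -2.22 percentage points. The 2-sided exact permutation test gave p = 0.333, which is the smallest p that 2 against 2 libraries allow.

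Most of the peaks that changed strongly in long chains fell. In a fit of all 59076 tested peaks, all 2300 member peaks were tested and 826 (35.9%) were called at least 2-fold lower, against 15.0% of all peaks. At least 2-fold higher were 184 (8%), against 26.9% of all peaks. At least 4-fold lower were 441 (19.2%), against 6.04% of all peaks, and 30 (1.3%) were at least 4-fold higher, against 10.1% of all peaks. The median log2 fold of member peaks was -0.63, and that of all peaks was -0.0085. The counts of member peaks stayed close under loess offsets, with 796 peaks lower and 159 higher by 2-fold or more. Shares of all peaks were not computed with loess offsets, so the contrast with all peaks was not examined under that scaling.

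Peaks rose less often and fell more often in chains of more peaks. Among single peaks 34.6% were at least 2-fold higher, and the share was 24.3% in chains of 2 or 3 peaks, 17.6% in chains of 4 to 7 and 8% in long chains. Peaks at least 2-fold lower went the other way, at 12.3%, 13.9%, 19% and 35.9%. Chain sums did not follow this order, with 12.3%, 7.8%, 7.49% and 18.3% at least 2-fold lower. In the 23 chains of 15 or more peaks the share of peaks at least 2-fold lower reached 49.9%, and 9 of those chains (39.1%) were at least 2-fold lower in sum. Level also rose with chain size in mature cells, and its part in these shares was not tested. The median mature level per peak was 10.1 CPM for single peaks, 13.2 and 15.5 CPM in the middle classes and 20.8 CPM in long chains. In reseeded cells the same 4 medians were 12, 13.4, 13.8 and 13.3 CPM.

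**Figure D2:**
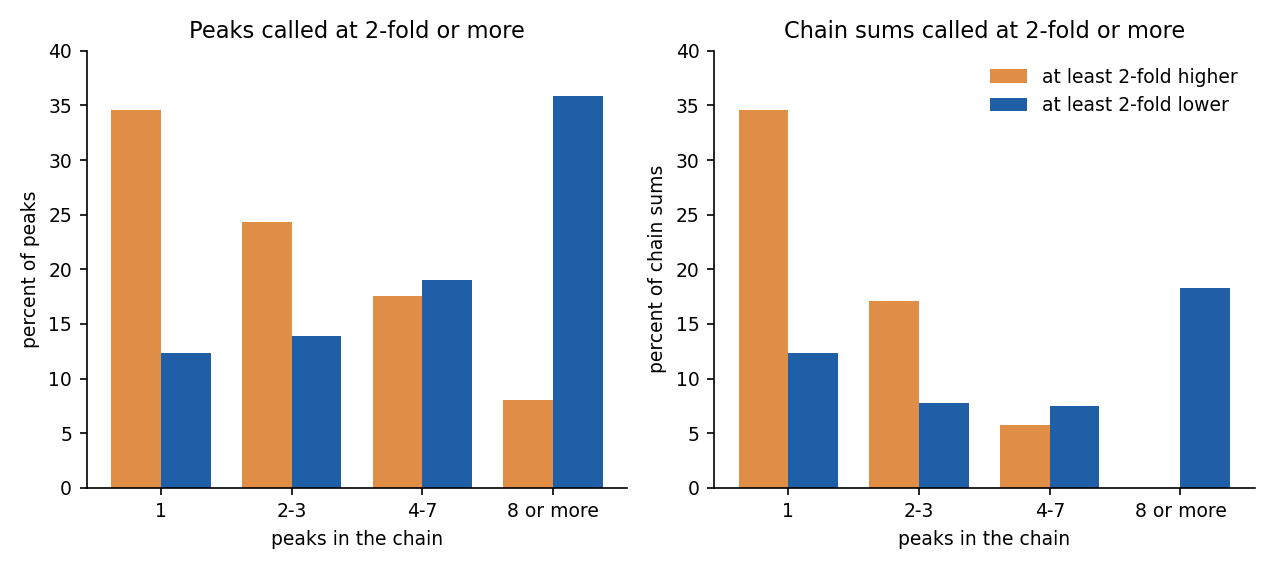
Percent of peaks (left) and of chain sums (right) called at least 2-fold higher (orange) or lower (blue) after reseeding, by the number of peaks in the chain, on numbered chromosomes. In long chains 8% of peaks are higher and 35.9% lower, while single peaks show 34.6% and 12.3%, and no long chain is at least 2-fold higher in sum.

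The largest losses came with a difference between the mature libraries. In 14 long chains (202 peaks) the log2 ratio of mature B to A was above 0.3, at 0.31 to 0.74. All 14 were called lower, at log2 folds of -3.91 to -1.08. The reseeded libraries differed less, with log2 ratios of B to A from -0.10 to 0.28 over all long chains. The part of this mature difference in the losses was not tested. In the other 199 chains, 160 were called lower and 23 higher, the median log2 fold was -0.46 and the lowest was -2.05. At least 2-fold lower there were 25 chains, in place of 39. Of their 2098 peaks 643 (30.6%) fell and 180 (8.58%) rose by 2-fold or more. Their share of counts was 5.57% and 5.61% in mature A and B and 4.15% and 4.19% in reseeded A and B. The split rests on chain sums, so peaks of these chains can still differ between the mature libraries. The chromosome 9 chain from 37457178 had a ratio of 0.08, but its block from 37470426 to 37481462 had 0.44. Among all member peaks, ratios above 0.3 made up 49% of those at least 4-fold lower. The share was 36.4% of those at least 2-fold higher and 12.1% of those passing neither 2-fold mark.

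**Figure D3:**
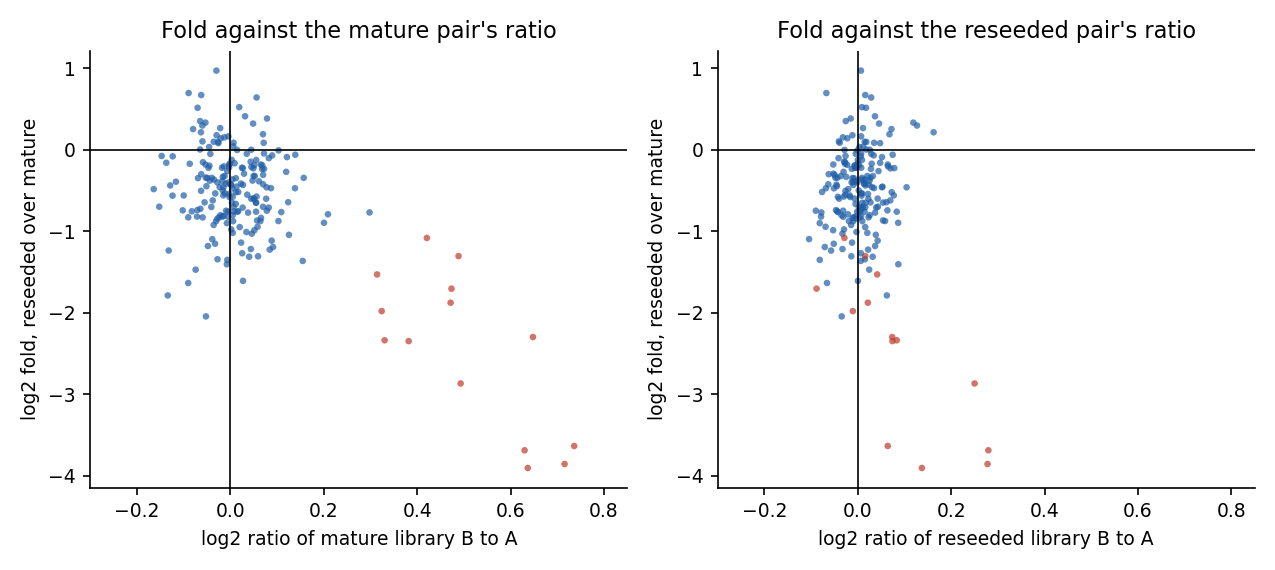
The log2 fold of each of the 213 long chains (y axis) against the log2 ratio of library B to A in the mature pair (left) and the reseeded pair (right). The 14 red chains, with a mature ratio above 0.3, run from -3.91 to -1.08, and the other chains reach down to -2.05. The reseeded ratios of all chains stay between -0.10 and 0.28.

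In 4 chains every peak fell at least 4-fold, and no difference in fold among their peaks was called. The longest, on chromosome 27 from 13140350 to 13168065 (27 peaks, 27.7 kb), read 580 and 901 CPM in mature A and B and 46.5 and 51.1 CPM in reseeded A and B. Both mature libraries were far above both reseeded ones, and mature B was above mature A. Its log2 fold was -3.91 (SE 0.10, adjusted p = 2.43e-29, edgeR), or 15-fold lower, and its 27 peaks ranged only from -4.54 to -3.58. The chain on chromosome 14 from 733130 to 739762 (8 peaks) read 168 and 276 against 13.4 and 16.2 CPM, a log2 fold of -3.86. On chromosome 6 from 43061656 to 43081016, 20 peaks summed to 355 and 549 against 31 and 37.6 CPM, a log2 fold of -3.69. On chromosome 13 from 40250718 to 40261753, 9 peaks summed to 113 and 188 against 11.5 and 12 CPM, a log2 fold of -3.64. In each of the 4 the groups lay far apart and mature B exceeded A by 0.63 to 0.74 on the log2 scale.

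Those 4 were the only long chains in which a test of unequal change called no difference. That does not show that their folds were equal, and in all 4 mature B was well above A. The part of this mature difference in the test was not tested. For each chain with 2 or more tested peaks, the peaks' folds were compared with each other (edgeR's diffSpliceDGE, F test, adjusted over 12026 chains). Unequal change was called in 209 of the 213 long chains (98.1%), against 78.6% of all chains tested, and in 97.1% of chains of 4 to 7 peaks. The share was thus close to that of the next smaller class. The adjusted p of the 4 exceptions was 0.995 to 1, and the SD of their peak folds was 0.21 to 0.28 on the log2 scale, against a median of 1.00 over all long chains (range 0.21 to 2.41). Of the variance of peak log2 folds over all members, 52.7% lay within chains and 47.3% between them. In the 199 chains whose sums had a mature log2 ratio up to 0.3, 65.4% lay within.

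Other chains of the 8 lowest kept a remnant. On chromosome 18 from 49100547 to 49109511 (10 peaks), the sum was 178 and 251 against 26.1 and 31.1 CPM (log2 fold -2.87). Its last and strongest peak, starting at 49109011, fell least, from 23 and 29.8 to 9.63 and 10.1 CPM, and so came to hold 34.5% of the reseeded counts of the chain, up from 12.3%. On chromosome 14 from 1056595 to 1075215 (11 peaks, log2 fold -2.35), the strongest peak, at 1073947, read 39.4 and 41 against 16.4 and 17.9 CPM. That peak was close to equal in the mature pair, with a log2 ratio of 0.06, although the chain's ratio was 0.38. On chromosome 9 from 10362389 to 10372066 (12 peaks) the log2 fold was -2.34, from 314 and 395 to 67.4 and 71.4 CPM.

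Losses were also large where the mature libraries agreed. The 5 lowest chains with a mature log2 ratio within 0.1 of 0, a selection made after the values were seen, had log2 folds of -2.05 to -1.41. The chain on chromosome 8 from 48328920 to 48336436 (9 peaks) read 300 and 289 CPM in mature A and B and 72.3 and 70.6 CPM in reseeded A and B, 4.13-fold lower (adjusted p = 6.30e-31, edgeR). On chromosome 17 from 5949902 to 5960605, 8 peaks summed to 160 and 163 against 53 CPM in each reseeded library. On chromosome 9 from 616736 to 643877, 17 peaks summed to 618 and 615 against 225 and 239 CPM. In all 3 the libraries of a group were close and the groups well apart. Of the 39 chains at least 2-fold lower, 21 had a mature log2 ratio within 0.1 of 0.

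In 30 of the 213 chains the loss took in blocks of neighbouring peaks. A block was counted where 3 or more consecutive peaks were each at least 4-fold lower, a definition set after the values were seen. There were 37 such blocks in 30 chains, with 246 peaks, 55.8% of the 441 member peaks at least 4-fold lower. In 4 cases the block was the whole chain, as above. In 23 other chains, which held 29 blocks, at least 1 further peak of the same chain changed by less than 2-fold, and 22 blocks had chain peaks on both sides. Blocks with a mature log2 ratio of B to A above 0.3 numbered 24 (172 peaks), and the other 13 held 74 peaks.

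The sharpest block with agreeing mature libraries lay on chromosome 1 in the chain from 110079794 to 110093960 (14 peaks). Its 7 inner peaks, from 110084747 to 110089178 (4.43 kb), summed to 199 and 187 CPM in mature A and B and to 5.6 and 4.8 CPM in reseeded A and B. Their log2 folds ran from -5.53 to -4.92. The strongest peak of the chain, just beyond the block at 110090886, read 50.1 and 47.5 against 31.4 and 31.2 CPM. The next, at 110091855, read 21.5 and 26.1 against 27.7 and 30 CPM, so there the reseeded libraries lay slightly above the mature ones. The chain as a whole read 406 and 382 against 130 and 124 CPM, a log2 fold of -1.64.

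Further blocks of this kind had both mature libraries close together. On chromosome 30, 12 of the 16 peaks of a chain, from 6772909 to 6787966, summed to 248 and 222 CPM in mature A and B and 14.4 and 14.3 CPM in reseeded A and B. On chromosome 7, 8 peaks from 954751 to 960622 summed to 189 and 188 against 7.7 and 9.1 CPM, inside a chain of 13 peaks that fell from 495 and 470 to 173 and 176 CPM. On chromosome 15, 8 of 21 peaks, from 487818 to 494378, summed to 154 and 164 against 9.1 and 9.39 CPM. In each of the 3 chains at least 3 peaks outside the block changed by less than 2-fold.

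Runs of gained peaks were few. Of the long chains, 5 held 3 or more neighbouring peaks at least 2-fold higher, and the longest run was of 4 peaks. Just 184 of the 2300 member peaks (8%) were at least 2-fold higher, against 826 (35.9%) lower, which leaves less room for runs of gains. The cut here is 2-fold and that of the lost blocks 4-fold. Whether gains ran together less than losses was not tested.

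**Figure D4:**
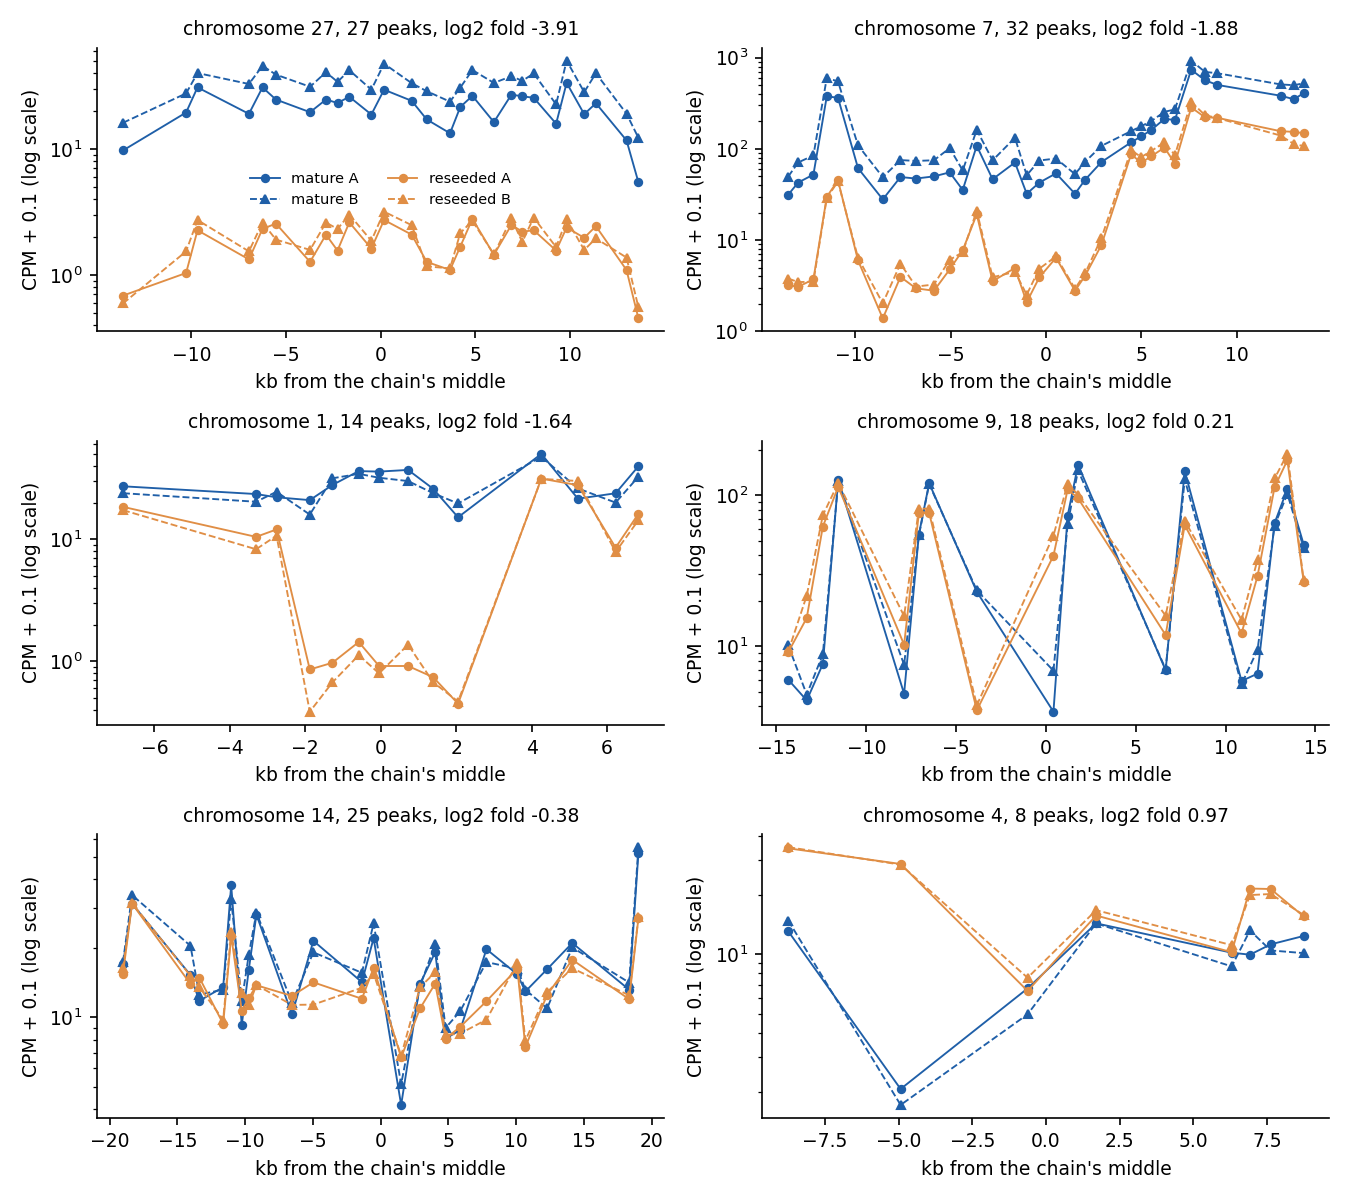
CPM of each peak plus 0.1 (y axis, log scale) against distance from the chain's middle in kb, in the 4 libraries, for 6 long chains. The chromosome 27 chain fell along its whole length, the chromosome 7 chain fell most in its left 21 peaks and the chromosome 1 chain in an inner block of 7. The chromosome 9 chain holds peaks moving in both directions. In the chromosome 14 chain only 1 peak passed a 2-fold change, and in the chromosome 4 chain all fitted folds were positive.

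The chain with the most peaks and the highest level lay on chromosome 7 from 80946834 to 80974343 (32 peaks, 27.5 kb). It read 5482 and 7601 CPM in mature A and B and 1766 and 1792 CPM in reseeded A and B, a log2 fold of -1.88 (SE 0.06, adjusted p = 3.03e-26, edgeR). The groups were far apart, but mature B exceeded A by 0.47 on the log2 scale, and with loess offsets the log2 fold was -0.79. It had a left and a right stretch. The left 21 peaks, from 80946834 to 80963745, summed to 1700 and 2700 CPM and fell to 168 and 176 CPM. In the right 11 peaks the loss was smaller, and the strongest peak, at 80967949, read 738 and 929 against 285 and 327 CPM.

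On chromosome 38 from 21088613 to 21115801, lost and kept peaks alternated. The 25 peaks summed to 803 and 1115 CPM in mature A and B and 302 and 284 CPM in reseeded A and B (log2 fold -1.71, and -1.05 with loess offsets). Of these peaks 17 fell and 1 rose by 2-fold or more. Beside a block of 3 lost peaks, the peak at 21099535 read 48.9 and 53.1 against 52 and 43.6 CPM, so its groups overlapped. On chromosome 9 from 37457178 to 37503091, the longest chain by span at 45.9 kb (28 peaks), the sum was 1022 and 1084 against 446 and 453 CPM (log2 fold -1.23, and -0.51 with loess offsets). Its strongest peak, at 37467509, read 124 and 120 against 66.5 and 65.7 CPM, and 12 of its peaks were at least 4-fold lower. The chain on chromosome 14 from 40316697 to 40355244, with 25 peaks, read 451 and 466 against 351 and 354 CPM. Its log2 fold of -0.38 turned to 0.21 with loess offsets, so its direction depends on the scaling.

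A smaller set of 23 long chains gained accessibility, none by as much as 2-fold with TMM scaling. With loess offsets the log2 folds of the 8 highest were larger, at 0.81 to 1.29, and 6 of the 8 passed 2-fold. The highest fold was on chromosome 4 from 73997636 to 74015637 (8 peaks), which read 79.2 and 77.6 CPM in mature A and B and 154 CPM in both reseeded libraries. The log2 fold was 0.97 (SE 0.05, adjusted p = 1.47e-19, edgeR), 1.96-fold higher, and with library size alone or upper-quartile factors it was 1.01. It was the only long chain in which every peak's fold was positive, although 3 of the 8 peaks were not called. Its peak at 74001451 had the highest fold, at 1.97 and 1.62 CPM (17 and 10 counts) in mature A and B against 28.7 and 28.4 CPM in reseeded A and B. Its strongest peak, at 73997636, read 13 and 14.7 against 34.4 and 34.9 CPM.

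The other gains were more uneven. On chromosome 14 from 6146271 to 6164233 the chain rose by 0.70 on the log2 scale, yet its last peak, at 6163733, fell from 28.3 and 26.1 to 2.33 and 2.5 CPM. On chromosome 2 from 52471834 to 52485700 the chain rose by 0.64, led by its strongest peak, at 52482802, which went from 24.6 and 24.3 to 68.3 and 69.7 CPM. On chromosome 9 from 31528666 to 31554027 the chain rose by 0.67 while its strongest peak, at 31553527, read 34.9 and 28.5 against 33.3 and 31.7 CPM, with overlapping groups. On chromosome 23 from 27288811 to 27306924 the chain rose by 0.52. Its strongest peak, at 27301485, read 50.6 and 47.9 against 39.4 and 43.4 CPM, so the sum rose through weaker peaks. On chromosome 10 from 38015323 to 38039257 the chain also rose by 0.52 with a strongest peak, at 38025505, that read 69 and 64.3 against 54.4 and 53.2 CPM. The last of the 8 highest log2 folds were 0.41 for the chain spanning 54073577 to 54097587 (chromosome 18) and 0.38 for that spanning 54759909 to 54775612 (chromosome 9).

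Sums near equality hid changes of single peaks. The chain on chromosome 16 from 27496105 to 27516128 had a log2 fold of 0.00 (adjusted p = 0.993, edgeR), with mean sums of 159 ± 3.46 CPM and 159 ± 1.99 CPM (SD, n = 2 each). Its strongest mature peak, at 27499924, fell from 60.7 and 62.7 CPM to 15.2 CPM in both reseeded libraries. Its last peak, at 27515628, rose from 5.45 and 8.58 to 27.8 and 29.7 CPM, and 3 more peaks rose at least 2-fold. On chromosome 20 from 55036823 to 55060685 the sum had a log2 fold of 0.03, and the strongest peak, at 55054661, read 82.1 and 75.5 against 83.6 and 77.7 CPM. Elsewhere in the chain the peak at 55042392 fell from 12.8 and 13.3 to 1.58 and 1.85 CPM and the last peak, at 55060185, rose from 3.71 and 5.34 to 16.6 and 17.2 CPM. The other 3 of the 5 smallest changes, likewise not called, were the chains spanning 18416949 to 18423240 (chromosome 14), 10747185 to 10762980 (chromosome 12) and 22952703 to 22968784 (chromosome 4). Of the 16 long chains that were not called, 14 held a peak changed at least 2-fold and all 16 were called for unequal change. These near-equal sums rest on the scaling, and with loess offsets the 5 log2 folds here were 0.35 to 0.55.

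Both directions met in a part of the long chains. A peak at least 2-fold lower was present in 186 long chains and a peak at least 2-fold higher in 99, and 80 chains (37.6%) held both. More peaks in a chain leave more room for both. The share was 5.36% in chains of 2 or 3 peaks, 19.7% in chains of 4 to 7 and 33.8% in chains of 8. Lower peaks alone were found in 106, higher peaks alone in 19 and neither in 8. A majority of the peaks fell by 2-fold or more in 45 chains and rose so in none (0 of 213, from the edgeR calls of all peaks).

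The widest spread of peak folds among such mixed chains was on chromosome 13 from 40690611 to 40698920 (9 peaks), 1 of the 8 lowest sums. Its first peak, at 40690611, rose from 2.78 and 3.4 CPM in mature A and B to 19.2 and 20.2 CPM in reseeded A and B. The other 8 peaks fell together, from 126 and 198 to 12.6 and 13.2 CPM in sum, so that the first peak went from 1.88% to 60.4% of the chain's counts. The second peak, at 40692660, lies 2.05 kb from it and read 19.7 and 33 against 1.75 and 2.79 CPM. On chromosome 8 from 50420229 to 50437417 (log2 fold -0.60), the peak at 50426744 fell from 12.1 and 13.6 to 1.4 and 1.52 CPM and the peak at 50436917 rose from 3.36 and 3.73 to 23.2 and 22.8 CPM. Mixed chains on chromosome 26 from 15334521 to 15342227 (log2 fold -0.23) and on chromosome 32 from 1213395 to 1232472 (-0.44) moved little in sum. With loess offsets these 2 sums were at 0.04 and -0.09 and were not called.

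Strong chains on chromosome 9 showed the same mixture at higher levels. From 33249642 to 33278829, 18 peaks summed to 966 and 924 CPM in mature A and B and to 1035 and 1158 CPM in reseeded A and B. The groups did not overlap, but the gap between them was smaller than the distance between the reseeded libraries (log2 fold 0.21, and 1.02 with loess offsets). In it 7 peaks rose and 2 fell by 2-fold or more. The peak at 33260137 fell from 22.8 and 23.3 to 3.68 and 3.98 CPM. The peak at 33264401, which lies 4.26 kb away, rose from 3.6 and 6.8 to 39.6 and 53.9 CPM. From 19842478 to 19876483, 19 peaks included 5 in each direction and the log2 fold of the sum was 0.30, and 1.05 with loess offsets.

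**Figure D5:**
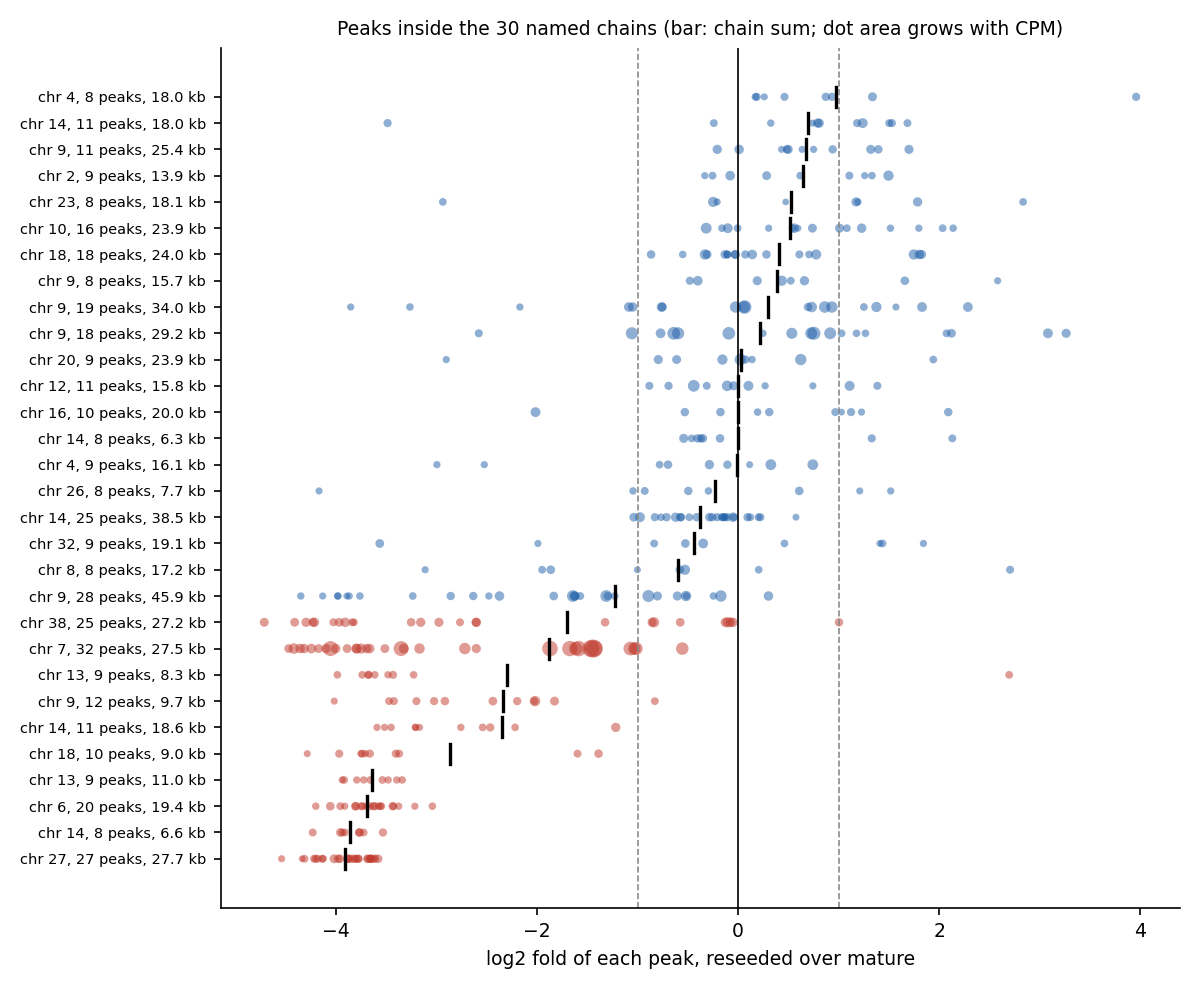
Log2 folds of every peak (dots, area growing with CPM) in the 30 long chains chosen by rule, ordered by the log2 fold of the chain sum (black bar), with chains of a mature log2 ratio of B to A above 0.3 in red. Peaks of the 4 lowest chains lie in narrow ranges, within -4.54 to -3.04, whereas some chains with sums near 0 hold peaks beyond both dashed lines at a fold of 2.

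Inside the chains, the strongest peaks passed a 2-fold change least often. The peak of highest CPM, averaged with equal weight for the groups, was lower by 2-fold or more in 18.8% of chains (40) and higher in 3.29% (7), and 77.9% passed neither mark. Among all other member peaks 37.7% were lower and 8.48% higher. The medians lay closer, with a log2 fold of -0.54 for the strongest peaks and -0.65 for all others. With the peaks of each chain divided by this level into strongest, middle and weakest, the share at least 2-fold lower was 25%, 36.3% and 44.4%. The share at least 2-fold higher was 3.37%, 8.31% and 11.5%. The same order held in the 199 chains whose sums had a mature log2 ratio up to 0.3, where 19.3%, 31% and 39.6% were lower. The group mean used for the ranking holds the values compared, so these shares are a description. First and last peaks of a chain were lower by 2-fold or more in 29.1% and higher in 13.8%, and inner peaks in 37.5% and 6.67%.

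The strongest peak was the same in all 4 libraries in 98 chains (46%). In 68 chains (31.9%) it was the same within each group but differed between the groups, and the old and new strongest peaks lay a median of 5.98 kb apart (0.516 to 37.4 kb). In the other 47 the libraries of a group did not name the same peak. The share of a chain's counts held by its strongest peak had medians of 23.2% and 22.6% in mature A and B and 23.6% and 24% in reseeded A and B. The difference of 0.891 percentage points gave p = 0.333 in the 2-sided exact permutation test, again the smallest p possible.

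Neighbouring peaks of a chain had more similar folds when they lay closer. Across the 820 neighbouring pairs at most 1 kb apart, Pearson's r between their log2 folds was 0.717, and 79.3% had the same sign. Across 744 pairs 1 to 2.5 kb apart r was 0.46 with 70.4% of the same sign, and across 523 pairs 2.5 to 5 kb apart r was 0.209 with 61.4%. Most member peaks fell (median log2 fold -0.63), so many pairs share a sign at any distance, and no expected share was computed. In the 199 chains whose sums had a mature log2 ratio up to 0.3, the 3 values of r were 0.638, 0.343 and 0.152. Pairs share libraries and chains and are not independent, so these values are descriptions. In 51 pairs the neighbours were changed at least 2-fold in opposite directions.

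The steepest step between neighbours came on chromosome 2, in a chain that starts at 59593039. The peak at 59598783 read 9.16 and 10.4 CPM in mature A and B and 11.8 and 11.2 CPM in reseeded A and B, and was not called. The next peak, at 59601815 and 3.03 kb away, read 24.4 and 24.8 against 0.35 and 0.287 CPM. Its reseeded values rest on 6 and 7 counts, and its log2 fold was -6.25 (SE 0.24, adjusted p = 1.33e-21, edgeR).

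Denser chains had lower folds. Across the 213 chains the mean spacing of peaks and the log2 fold of the sum had a Pearson's r of 0.38 and a Spearman's rho of 0.323. Across the 199 chains whose sums had a mature log2 ratio up to 0.3 these were 0.211 and 0.206. Among the 71 chains of narrowest spacing (0.827 to 1.59 kb) the median log2 fold was -0.76 and 24 were at least 2-fold lower. In the 71 of middle spacing the median was -0.48 with 9 such chains, and in the 71 of widest spacing -0.38 with 6. The number of peaks and the fold had a Pearson's r of -0.249, and of -0.132 across the 199. All chains share the same 4 libraries, and these are descriptions across chains.

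Around the chains the loss was weaker. The nearest peak outside on each side (425 peaks, a median of 10.6 kb away) had a median log2 fold of -0.40, with 24.7% lower and 15.8% higher by 2-fold or more. Over all peaks these shares were 15.0% and 26.9%. The sign matched that of the chain in 63.3%, with 70.5% for peaks up to 6 kb away and 59.4% for those over 20 kb away. Both the chains and these outside peaks mostly fell, so many signs match in any case, and no expected share was computed. Some long chains lay close to each other, and 13 neighbouring pairs were within 50 kb, 11 of them with folds of the same sign. Most long chains fell, so pairs of the same sign are common among them in any case. On chromosome 18, 3 long chains between 49082054 and 49149664 had log2 folds of -1.31, -2.87 and -0.77. All 16 long chains that start in the first 2 Mb of a chromosome were called lower, with a median log2 fold of -0.88, and 8 were at least 2-fold lower. Over all long chains 81.7% were called lower and 18.3% at least 2-fold lower. In 3 of the 16 mature B exceeded A by more than 0.3 on the log2 scale. Without them all 13 were called lower, 5 of them at least 2-fold, and the median was -0.52, close to the -0.50 of all long chains.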

How the data were processed

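The authors' deposited table holds raw counts of 4 ATAC-seq libraries in 59081 peaks. Per the submitters' processing notes, the tools included Bowtie2 and MACS2 and the build was CanFam3.1. Versions, settings, duplicate handling, the Tn5 offset, what was counted and how peaks entered the table are, in the sources used here, not given. They can shift counts and decide which chains are long. Positions count from 1.

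Members and lists were chosen with earlier results of these data known. Counts were tested in R 4.3.3 with edgeR 4.0.16 (filterByExpr, TMM factors, quasi-likelihood test without a block, Benjamini-Hochberg adjustment), for 59076 peaks and 37425 chain sums, and diffSpliceDGE compared peaks within 12026 chains. Total counts per library were 6253706 to 24015663. The square root of edgeR's common dispersion of peaks was 3.3%. It is a single value over all peaks that leaves out counting noise, and the mature libraries of some chains differed far more. PCR copies may be counted.

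The text names the 8 highest and 8 lowest called chains, the 5 with the most peaks, of highest CPM, of smallest fold and of most mixed folds, and in each the strongest, highest and lowest peaks. Other peaks named were chosen after their values were seen.

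Alternatives were other scalings (loess offsets, upper-quartile factors, TMM on chain sums, no factors, and size factors of DESeq2), DESeq2 1.42.0, no count filter, at least 30 counts in 2 libraries, an adjusted p under 0.01, a replicate block, each library left out, chaining at 3 and 10 kb, and minima of 6 and 10 peaks. Leaving out chains whose mature libraries differed was added after seeing the data. The edgeR fits were tested on simulated data. Summaries used pandas 2.3.3, numpy 2.4.6 and scipy 1.17.1, and plots matplotlib 3.10.9.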

Additional observations from a re-analysis of the deposited data

How the results depend on the processing

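Of 170 alternatives run for the main results, 126 were counted as the same. Counts had to stay within 1.5 times the reported value and the median fold within the spread between libraries. For the share of counts in long chains and that of the strongest peak, the difference between groups only had to keep its sign. The strongest peak's difference, 0.891 percentage points, was 4.33 with chaining at 3 kb and 0.0056 at 10 kb. The median log2 fold was -0.46 with upper-quartile factors and with library size alone. It was also -0.46 over the 199 chains whose sums had a mature log2 ratio up to 0.3, and -0.53 to -0.51 with 1 library left out in turn. Both of those scalings put 1 long chain at least 2-fold higher, and the 199 chains held 25 at least 2-fold lower. Loess offsets gave 83 chains higher, 103 lower, 8 at least 2-fold higher, 15 at least 2-fold lower and a median of -0.07.

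Chaining at 3 kb left 91 chains (953 peaks), of which 6 were higher and 80 lower, with a median of -0.70, 37 peaks at least 2-fold higher and 446 lower, 87 chains of unequal change and 20 with both directions. Chaining at 10 kb gave 698 chains (7952 peaks), of which 159 were higher, 458 lower and 7 at least 2-fold higher, with a median of -0.27, 1101 and 1942 peaks, 694 chains of unequal change and 376 with both directions. A minimum of 6 peaks gave 549 chains, with 91 higher, 399 lower, 4 and 66 at least 2-fold higher and lower, a median of -0.41, 448 and 1318 peaks, 540 of unequal change and 167 with both directions. A minimum of 10 peaks left 106 chains, with 12 higher, 89 lower, 23 at least 2-fold lower, a median of -0.58, 107 and 547 peaks, 104 of unequal change and 38 with both directions. These 4 settings change how many chains are counted.

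With a replicate block by library letter, 174 long chains were lower, 23 higher and 39 at least 2-fold lower, the same counts as without it. The labels do not say that a letter pairs libraries, and the difference between A and B in mature cells had a correlation with that in reseeded cells of 0.0314 across all peaks and 0.134 across member peaks. For the 25 called named chains, 247 of 250 alternatives kept direction and call. Loess offsets reversed 4 named chains, on chromosome 4 from 22952703 (0.44), chromosome 14 from 18416949 (0.35) and from 40316697 (0.21) and chromosome 26 from 15334521 (0.04). The cause was not tested. No alternative matched the depth of the libraries.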

Other observations

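Chromosome X, outside the numbered chromosomes, carried 8 chains built by the same rule, and all 8 were called lower (edgeR, adjusted over all chains tested). The lowest, from 49705153 to 49722525 (8 peaks), read 50.1 and 81.1 CPM in mature A and B and 3.21 and 3.69 CPM in reseeded A and B, a log2 fold of -4.19. Chains from 117708063 (13 peaks) and from 120909694 (14 peaks) had log2 folds of -3.71 and -3.58. In these 3 every peak was at least 2-fold lower, and the test of unequal change gave adjusted p-values of 0.975 to 0.997. Chains from 105567357 and 105805098 fell by 3.11 and 2.73 on the log2 scale. In these 5 chains mature B exceeded A by 0.45 to 0.70 on the log2 scale. The other 3 agreed better between the mature libraries, with ratios of 0.15, 0.13 and 0.08, and had log2 folds of -1.53, -1.24 and -0.84. Of these, the chain from 47972069 to 47985150 (16 peaks) read 1280 and 1430 CPM in the mature libraries and 463 and 472 CPM in the reseeded libraries.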
